A study of Mus musculus with 4 samples.

Results

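Most of the genes described here encode the machinery that brings proteins into mitochondria or the carriers that move metabolites across the inner mitochondrial membrane. Some do not, such as Prelid1, whose protein carries a lipid, and the peroxisomal carrier Slc25a17. The set, called import and carrier genes below, was chosen by symbol, with earlier results of these data known. It holds every gene annotated on the array whose symbol starts with Timm, Tomm or Slc25a, plus Prelid1. The array read 69 such genes of 18193 genes in all, through 148 probe sets: 16 genes of the inner translocase family (Timm), 8 of the outer translocase family (Tomm), 44 metabolite carriers (Slc25a) and Prelid1. A filter was set at a mean log2 signal of 3.14, the middle value over non-control probe sets, and 52 of the 69 reached it, namely 10 Timm, 8 Tomm, 33 Slc25a genes and Prelid1. The counts below refer to these 52, and the 17 dimmer genes are accounted for at the end.

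Most mitochondrial proteins are made in the cytosol. The outer membrane translocase takes them up through its receptors and channel, the presequence translocase of the inner membrane passes matrix proteins on, and small chaperones of the intermembrane space guide hydrophobic proteins, among them the metabolite carriers, to a separate inner membrane translocase. The carriers then exchange nucleotides, phosphate, carboxylates and amino acids between matrix and cytosol.

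RNA labelled as coming from the mouse mast cell line MC/9, a line from the liver of a (B6 X A/J)F1 mouse, was measured on Affymetrix Mouse Genome 430 2.0 arrays, which read a transcript through sets of short probes. The cells had been given berberine at 10 microM together with anti-DNP IgE, an antibody against dinitrophenyl, at 500 microg/ml (BER+DNP), berberine alone at the same dose (BER), the antibody alone (DNP) or nothing (control). Berberine is a plant alkaloid that inhibits respiratory complex I, and the question of the series is which genes its anti-inflammatory effect involves. The 3 treated cultures had 24 h of treatment and then 6 h of culture, whereas the sample label of the control gives no times, and no antigen step is named. All cultures grew in medium with T-STIM supplement, so all 4 groups share that supplement.

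With 1 array a group there is no replicate error and no replicate check, no test was made, and each difference below is between 2 arrays. Precision is limited by the number of arrays. The pair of BER and control shares no array with the pair of BER+DNP and DNP, and the 2 are called the berberine pairs. Pearson correlations between arrays across 45037 probe sets lay between 0.988 and 0.991. Of 10 mast cell markers, 5 passed the filter (Cma1, Gata2, Hdc, Mcpt4 and Tpsb2), with Gata2 at 5.64 or above and Hdc at 5.32 or above on every array. The other 5 did not, among them the receptor genes Kit (at most 3.01), Fcer1a (at most 2.58) and Ms4a2 (at most 2.85). Of 4 leukocyte markers Laptm5 passed, at 6.52 to 6.86, while Ptprc read at most 2.39. Epithelial markers passed in 4 of 5 cases, with Krt17 at 9.45 to 9.65, Krt8 at 7.27 to 7.37 and Krt18 at 3.77 to 4.00, while Cdh1 read at most 1.71. Fibroblast markers passed in 3 of 4. Between the berberine arrays and their partners, 24 poly-A control probe sets, which report RNA added during preparation, differed by a median of -0.48 (BER minus control) and -0.14 (BER+DNP minus DNP) on the log2 scale, and 18 hybridisation control probe sets by 0.03 and 0.10. The 5' control probe set of beta-actin differed by -0.57 and -0.59 and its 3' probe set by -0.31 and -0.22. Those of Gapdh differed by 0.05 and -0.08 at the 5' end and by -0.03 and 0.02 at the 3' end. The part of these shifts in the results was not tested.

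Import and carrier genes read lower with berberine more often than genes at large. In BER against control, 36 of the 52 lay below 0 and 15 above it, with a median log2 difference of -0.09, where all 12585 genes past the filter had a median of 0.00 and 49.9% below 0. In BER+DNP against DNP, 39 lay below 0 and 12 above it, with a median of -0.17, against -0.02 and 53.2% for all genes. Below 0 in both berberine pairs were 29 of the 52 (55.8%), against 29.7% of all genes, and above 0 in both were 5 (9.62%), against 25.4% of all genes. On these bulk arrays, fewer cells of a type and less RNA per cell cannot be told apart.

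All genes past the filter were divided into 4 equal groups by signal. In the brightest group 15 of 23 members (65.2%) lay below 0 in both pairs, against 38.1% of all genes there. In the next group 4 of 9 (44.4%) did so, against 29.6%, and there the members' median in BER against control was above 0, at 0.07. In the group after it 7 of 13 (53.8%) did so, against 26.3%, and in the dimmest 3 of 7 (42.9%), against 24.9%. In 22 of the 52 members (42.3%) both berberine arrays read below both arrays without berberine, where 19.7% of all genes did. In 3 members (5.77%) both read above, against 16.1% of all genes. Other mitochondrial sets gave 48.4% below and 6.45% above (31 Nduf genes of complex I) and 32.8% below and 17.9% above (67 mitochondrial ribosomal protein genes).

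**Figure D1:**
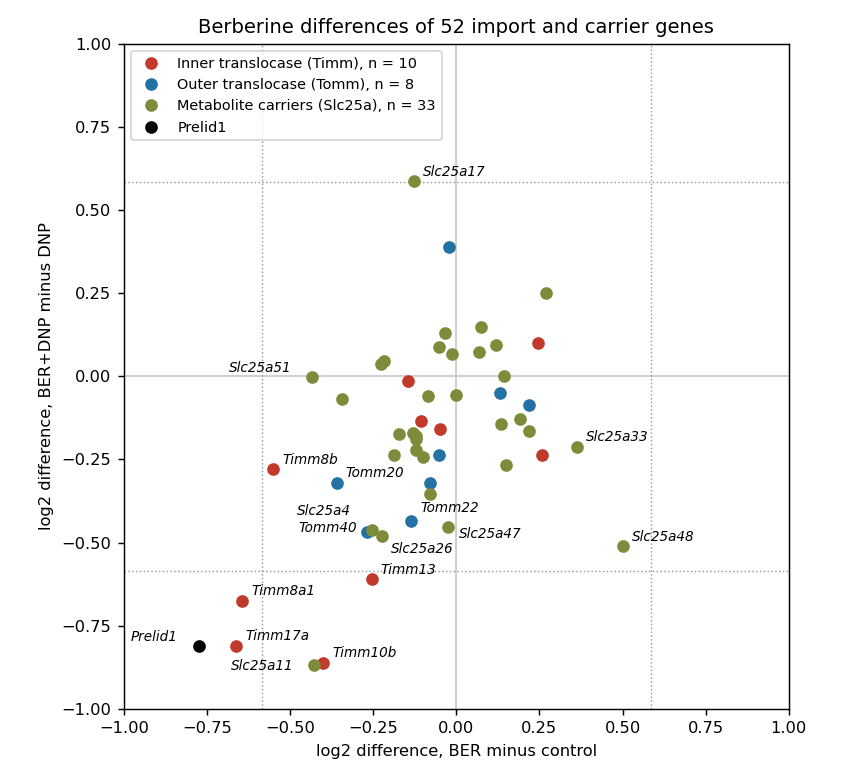
Each point is a gene past the filter, with its log2 difference between BER and control on the horizontal axis and between BER+DNP and DNP on the vertical axis, coloured by family; dotted lines mark 1.5-fold. Prelid1, Timm17a and Timm8a1 lie past 1.5-fold in the lower left corner, and 0 genes lie past it in the upper right.

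At least 1.5-fold lower in BER against control were 3 members, where 0.985% of all genes past the filter were, and 0 members were that much higher, where 1.01% of all genes were. In BER+DNP against DNP, 6 members were at least 1.5-fold lower, where 0.699% of all genes were, and 1 was higher, where 0.509% of all genes were. Counted in either direction, 1.99% of all genes were past 1.5-fold in the first comparison and 1.21% in the second. Past 1.5-fold in both pairs were 3 genes: Prelid1, Timm17a and Timm8a1. Timm17a passed the filter only through its readings without berberine, and without it the count is 2. Among all 12585 genes 20 were at least 1.5-fold lower in both (0.159%) and 10 higher (0.0795%).

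Prelid1 encodes a protein that carries phosphatidic acid between the mitochondrial membranes, where it feeds cardiolipin synthesis. Its brightest probe set read 8.20 in BER and 8.97 in control, and 8.38 in BER+DNP and 9.19 in DNP. Both berberine arrays thus lay below both others, by 1.71-fold in the first pair and 1.75-fold in the second, and the mean of the 2 log2 differences ranked 3 from the lowest of all 12585 genes. Its other 2 probe sets past the filter went the same way with smaller differences, -0.28 and -0.17 for one and -0.18 and -0.08 for the other. The brightest carries the suffix s, of the type that can match several transcripts, and without probe sets of the suffixes x and s Prelid1 differed by only -0.18 and -0.08.

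Timm8a1 encodes a small chaperone of the intermembrane space, the mouse counterpart of the human deafness-dystonia protein. It read 6.30 in BER and 6.94 in control, and 6.40 in BER+DNP and 7.07 in DNP, which is 1.56-fold and 1.60-fold lower with berberine, at rank 22 from the lowest. The 2 berberine arrays lay close together and so did the 2 arrays without berberine. A dimmer probe set of the gene gave -0.19 and -0.27, and the median of its probe sets -0.42 and -0.47.

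Timm17a encodes a subunit of the presequence translocase. It read 2.77 in BER and 3.43 in control, and 2.99 in BER+DNP and 3.80 in DNP, 1.58-fold and 1.75-fold lower with berberine, at rank 9 from the lowest. Both berberine readings lie under the filter, so these folds rest on weak signals. It had 1 probe set. Its close relative Timm17b, which serves the same translocase, read 6.94 in BER and 7.05 in control, and 7.21 in BER+DNP and 7.34 in DNP, differences of -0.11 and -0.13.

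The promoters of these genes are shown because, by their brightest probe sets, the 3 read lower together while Timm17b differed little. For Prelid1 that contrast rests on its brightest probe set. Without the suffixes x and s it gave -0.18 and -0.08, where Timm17b gave -0.11 and -0.13. The RefSeq table of GRCm38.p6 held 67 windows for 56 of the 69 genes, each from 250 bases before to 50 after the start of a transcript. Letters in capitals mark matches, on either strand, to the NRF1 motif, CCGGAAG (ETS factors), CACGTG (the E-box of MYC and USF factors), TGACGTCA (the cyclic AMP response element) and TGATGNAA (ATF4 with C/EBP partners).
Prelid1, chr13:55321805-55322104, + strand: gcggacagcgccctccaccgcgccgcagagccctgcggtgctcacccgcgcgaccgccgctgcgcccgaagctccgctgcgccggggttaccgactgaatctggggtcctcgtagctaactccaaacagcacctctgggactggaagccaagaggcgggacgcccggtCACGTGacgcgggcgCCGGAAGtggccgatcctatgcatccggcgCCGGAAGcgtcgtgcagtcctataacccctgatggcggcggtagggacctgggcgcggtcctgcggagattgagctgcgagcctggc
Timm8a1, chrX:134541621-134541920, - strand: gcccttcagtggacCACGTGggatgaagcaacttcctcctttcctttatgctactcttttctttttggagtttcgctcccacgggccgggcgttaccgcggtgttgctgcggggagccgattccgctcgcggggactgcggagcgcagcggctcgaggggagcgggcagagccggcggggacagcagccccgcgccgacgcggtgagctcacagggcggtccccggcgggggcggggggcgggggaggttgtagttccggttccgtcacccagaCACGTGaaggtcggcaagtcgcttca
Timm17a, chr1:135313688-135313987, - strand: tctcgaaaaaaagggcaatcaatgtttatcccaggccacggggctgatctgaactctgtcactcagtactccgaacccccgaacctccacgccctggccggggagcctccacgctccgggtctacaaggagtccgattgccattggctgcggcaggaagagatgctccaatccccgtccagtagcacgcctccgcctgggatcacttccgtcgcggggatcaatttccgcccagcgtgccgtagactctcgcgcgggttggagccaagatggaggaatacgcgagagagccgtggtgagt
Timm17b, chrX:7899086-7899385, + strand: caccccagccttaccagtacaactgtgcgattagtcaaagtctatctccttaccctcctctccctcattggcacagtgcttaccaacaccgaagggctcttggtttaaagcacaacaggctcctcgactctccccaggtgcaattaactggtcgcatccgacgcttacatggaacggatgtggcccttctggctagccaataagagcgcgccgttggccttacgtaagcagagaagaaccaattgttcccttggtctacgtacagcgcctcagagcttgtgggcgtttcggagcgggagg

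The Prelid1 window holds 1 E-box and 2 ETS matches, and the Timm8a1 window 2 E-boxes. The windows of Timm17a and Timm17b hold none of the 5 motifs. CCAAT, searched as well and not capitalised, stood 2 times in the Timm17a window and 3 times in that of Timm17b, and in 40.3% of the windows of import and carrier genes, against 37.4% of all windows. Over all windows of import and carrier genes, 14 of 67 held an E-box (20.9%), against 7.15% of all 32851 windows in the table and 9.09% of the 12766 windows of genes past the filter. An ETS match stood in 19 of the 67 (28.4%), against 8.86% of all windows and 14% of those of genes past the filter. The NRF1 motif stood in 4 (5.97%), against 4.60% of all windows and 8.04% of those past the filter, the cyclic AMP response element in 2 (2.99%), against 1.79% and 2.70%, and the ATF4 motif in 0, against 3.97% and 2.42%. Windows of 1 gene can overlap, and a match describes letters only.

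**Figure D2:**
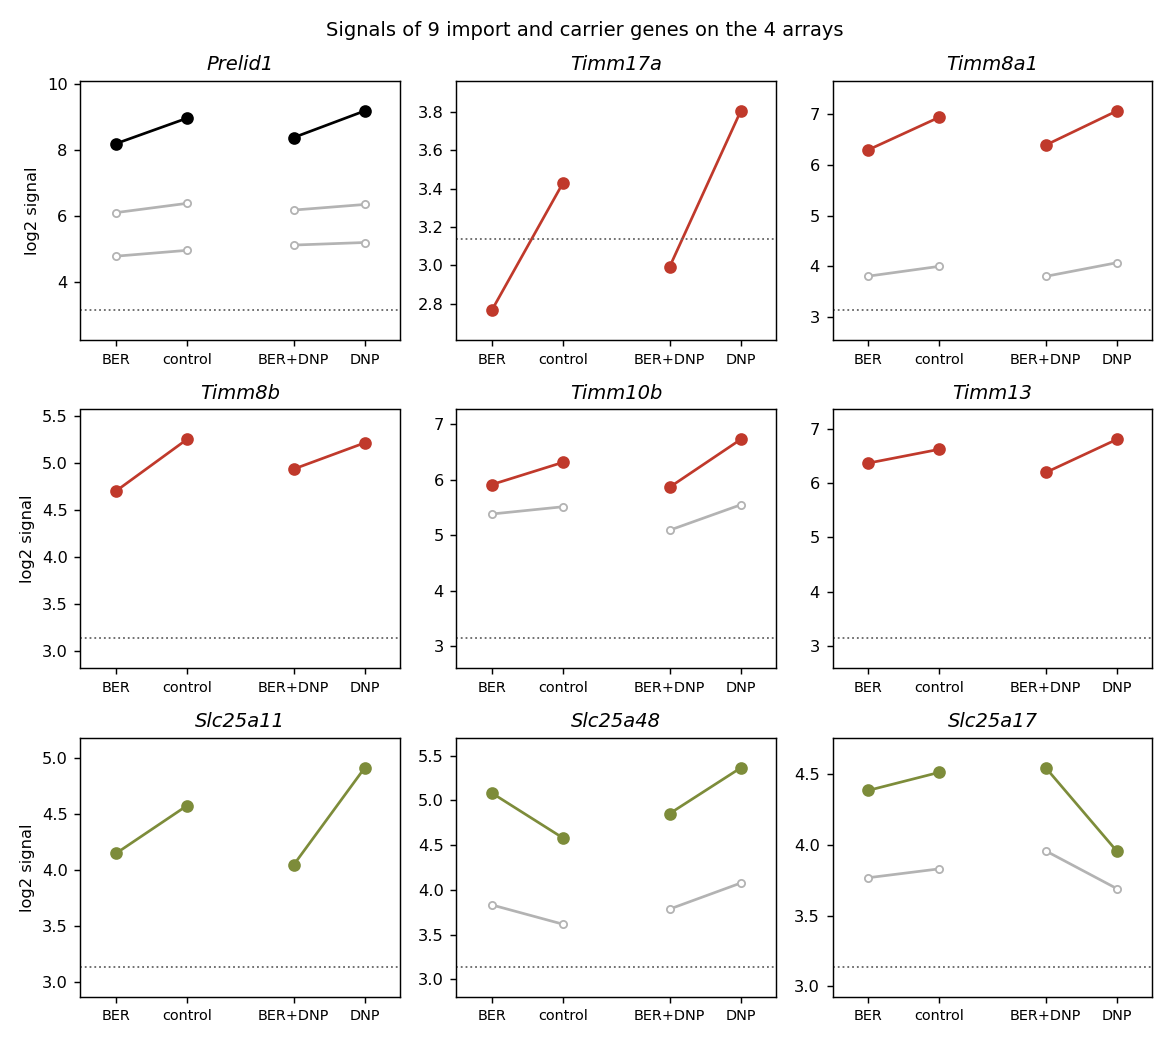
Log2 signals of 9 genes on the 4 arrays, each berberine array joined to its partner without berberine; filled points are the brightest probe set, open grey points further probe sets past the filter, and the dotted line is the filter at 3.14. Vertical scales differ between panels. By their brightest probe sets, the first 7 genes read lower on both berberine arrays than on both others, whereas Slc25a48 and Slc25a17 had opposite orders in the 2 pairs.

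Among the inner translocase genes past the filter the small chaperones of the intermembrane space stood lowest. These 5 had median log2 differences of -0.40 without the antibody (BER minus control) and -0.61 with it (BER+DNP minus DNP). In 4 of the 5 both berberine arrays read below both others, as they did in 19.7% of all genes. Besides Timm8a1 these were Timm10b, Timm13 and Timm8b. Timm10b, which works at the carrier translocase, read 5.91 in BER and 6.31 in control, and 5.87 in BER+DNP and 6.73 in DNP. It was 1.32-fold and 1.82-fold lower with berberine, at rank 32 from the lowest, and its second probe set past the filter gave -0.13 and -0.46. Timm13, which pairs with Timm8a, read 6.37 in BER and 6.62 in control, and 6.19 in BER+DNP and 6.80 in DNP, 1.19-fold and 1.53-fold lower.

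Timm8b, a relative of Timm8a1, read 4.70 in BER and 5.25 in control, and 4.94 in BER+DNP and 5.22 in DNP, with log2 differences of -0.55 and -0.28. Neither reached 1.5-fold. Timm10, which chaperones the metabolite carriers, was the exception among the 5, with 4.43 in BER and 4.17 in control, and 4.10 in BER+DNP and 4.34 in DNP. The small chaperones under the filter, Timm9 and Timm8a2, gave 0.15 and -0.01, and 0.00 and 0.04.

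The rest of the presequence translocase differed less than Timm17a. With Timm17a included, the 5 genes of this translocase past the filter had medians of -0.11 and -0.13. The channel gene Timm23 gave -0.15 and -0.01, and Timm44, which anchors the import motor, -0.05 and -0.16. Timm50, the presequence receptor of the inner membrane, read 6.80 in BER and 6.56 in control, and 6.88 in BER+DNP and 6.78 in DNP, and was the 1 inner translocase gene past the filter above 0 in both pairs. Its probe sets disagreed: the second gave -0.30 without the antibody and 0.03 with it, the third 0.13 and 0.03. As a family, the 10 inner translocase genes had medians of -0.20 and -0.26. Without the antibody 8 lay below 0 and with it 9, of which 8 did so in both. Of all genes 49.9%, 53.2% and 29.7% did so.

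**Figure D3:**
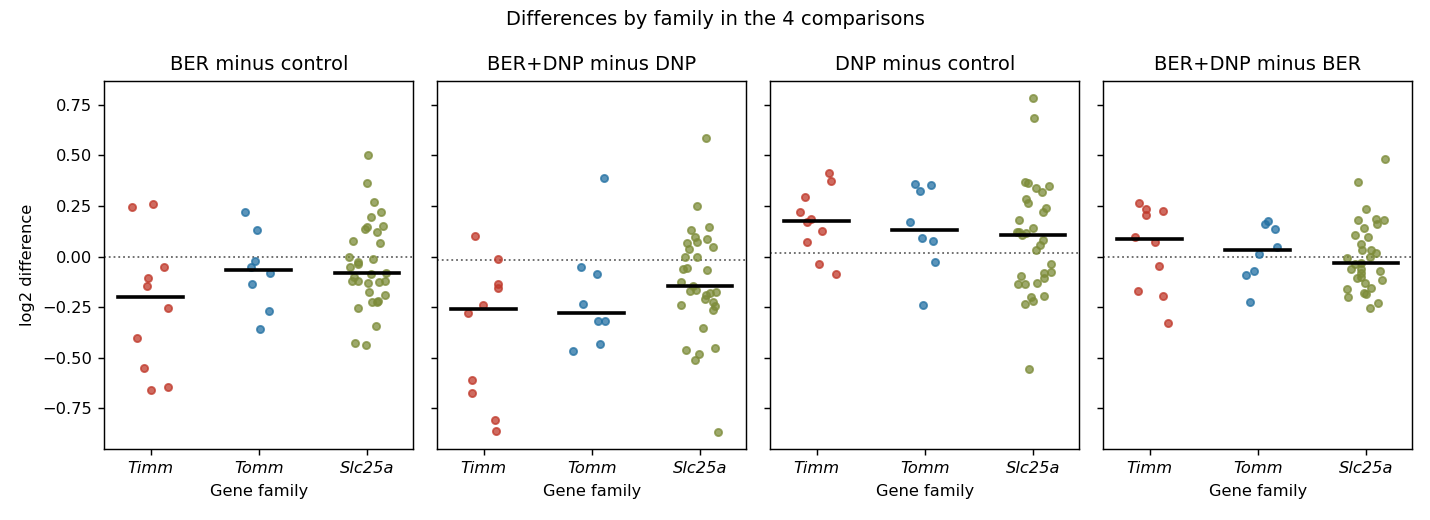
Log2 differences of the genes past the filter in each family (10 Timm, 8 Tomm, 33 Slc25a) in the 4 comparisons; points are genes, black bars family medians and dotted lines the median of all 12585 genes. In BER+DNP minus DNP all 3 family medians lie below the dotted line, at -0.26, -0.28 and -0.14.

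By their brightest probe sets, the outer translocase genes differed by less than 1.5-fold in both pairs. Their median over 8 genes was -0.07 without the antibody and -0.28 with it, a gap that was not tested. Lower with berberine in both pairs were 5 of the 8 (62.5%), against 29.7% of all genes, and higher in both 0, against 25.4%. In either pair 0 reached 1.5-fold, where only 1.99% of all genes did in the first and 1.21% in the second. Tomm40, the channel itself, read 6.35 in BER and 6.62 in control, and 6.51 in BER+DNP and 6.98 in DNP, 1.20-fold and 1.38-fold lower. Tomm20, the receptor for presequences, read 7.70 in BER and 8.06 in control, and 7.71 in BER+DNP and 8.03 in DNP, with nearly equal differences of -0.36 and -0.32. A further Tomm20 probe set gave -0.65 and -0.13 and another 0.19 and -0.08, so both size and direction rest on the probe set. The median of all its probe sets gave 0.07 and 0.009.

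Tomm22, the central receptor, gave -0.14 and -0.43 and Tomm34, a cytosolic co-chaperone, read 6.62 in BER and 6.70 in control, and 6.55 in BER+DNP and 6.87 in DNP. Tomm7, a small subunit of the complex, read 10.1 in BER and 10.2 in control, and 10.3 in BER+DNP and 10.5 in DNP. Its 2 dimmer probe sets past the filter were above 0 in BER+DNP against DNP, at 0.08 and 0.12. Tomm70a, the receptor for carrier precursors, gave 0.13 and -0.05. The relatives Tomm40l and Tomm20l gave 0.22 and -0.09, and -0.02 and 0.39.

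The metabolite carriers were mixed. Of 33 past the filter, 15 lay below 0 in both berberine pairs (45.5%) and 4 above 0 in both (12.1%), against 29.7% and 25.4% of all genes. Their medians were -0.08 and -0.14. The other Slc genes, which encode transporters of other membranes as well, had medians of 0.03 and -0.01 over 217 genes, with 24.9% below 0 in both and 27.6% above. Mitochondrial ribosomal protein genes, 67 in number, had 35.8% below 0 in both pairs, and 31 Nduf genes of complex I had 61.3%, with medians of -0.10 and -0.13. The share of lower genes among all 52 import and carrier genes, 55.8%, thus lay between those of these other mitochondrial sets.

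Slc25a11, the carrier that exchanges oxoglutarate for malate in the malate aspartate shuttle, was the carrier with the lowest mean difference. It read 4.15 in BER and 4.58 in control, and 4.05 in BER+DNP and 4.92 in DNP, 1.34-fold and 1.82-fold lower with berberine, at rank 25 from the lowest, and had 1 probe set. The aspartate and glutamate carriers of the same shuttle, Slc25a12 and Slc25a13, gave -0.08 and -0.35, and 0.15 and -0.27. The citrate carrier Slc25a1 gave -0.23 and 0.04, and the dicarboxylate carrier Slc25a10 0.14 and -0.14.

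The exchangers of ADP and ATP read slightly lower with berberine. Slc25a4 read 7.18 in BER and 7.43 in control, and 7.21 in BER+DNP and 7.67 in DNP, with differences of -0.25 and -0.46, and its second probe set past the filter gave -0.27 and -0.32. Slc25a5 read 12.4 in BER and 12.6 in control, and 12.4 in BER+DNP and 12.6 in DNP, or -0.12 and -0.19. All 6 of its probe sets past the filter lay below 0 in both pairs, between -0.43 and -0.08 without the antibody and between -0.40 and -0.13 with it. A pseudogene of Slc25a5 is annotated and the 2 exchangers are close relatives, so probe sets of the suffix x may read several of them.

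The phosphate carrier Slc25a3 read 7.60 in BER and 7.82 in control, and 8.08 in BER+DNP and 8.04 in DNP, so by this probe set only the pair without antibody lay below 0. Its second probe set past the filter went the opposite way in each pair, with 0.39 and -0.21. The glutamate carrier Slc25a22 read 7.21 in BER and 7.29 in control, and 7.10 in BER+DNP and 7.16 in DNP. Slc25a26, which brings S-adenosylmethionine into the matrix, gave -0.22 and -0.48, and its second probe set past the filter 0.13 and -0.28. Above 0 in both pairs stood Slc25a38, the glycine carrier of haem synthesis, with 5.52 in BER and 5.25 in control, and 5.27 in BER+DNP and 5.02 in DNP. Its differences of 0.27 and 0.25 were the highest mean of the Timm, Tomm, Slc25a and Prelid1 genes past the filter. That mean ranked 633 from the highest of all genes.

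**Figure D4:**
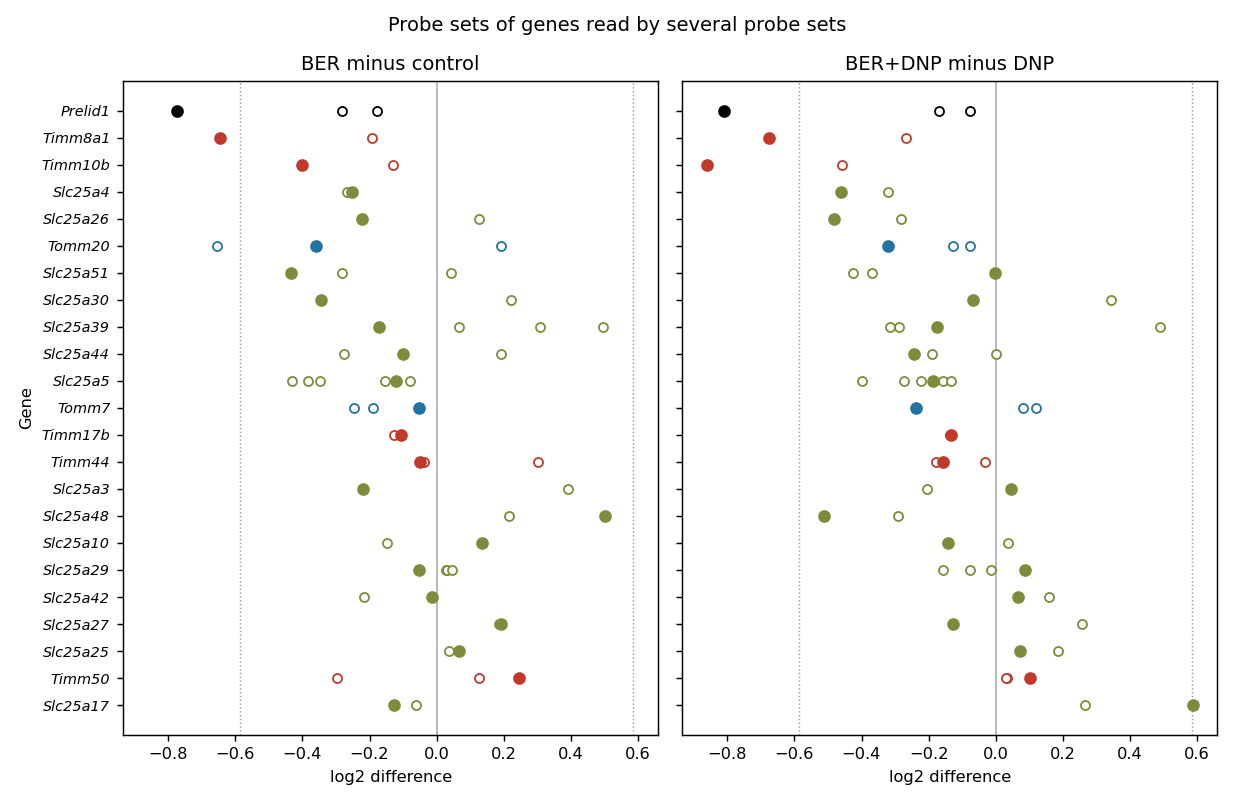
Log2 differences of every probe set past the filter for the 23 genes with several such probe sets, in BER minus control (left) and BER+DNP minus DNP (right); filled points are the brightest probe set of a gene, open points the others, colours are the families (red Timm, blue Tomm, green Slc25a, black Prelid1) and dotted lines 1.5-fold. All probe sets of Prelid1, Timm8a1, Timm10b, Slc25a4, Slc25a5 and Timm17b lie left of 0 in both panels, whereas those of Slc25a39 and Slc25a30 lie on both sides.

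Probe sets of the same gene often disagreed. Of 23 import and carrier genes with several probe sets past the filter, 7 had every probe set on the same side of 0 in both pairs: Prelid1, Timm8a1, Timm10b, Timm17b, Slc25a4 and Slc25a5 below and Slc25a25, an ATP-Mg and phosphate carrier, above. Counted by probe set, 43 of 90 (47.8%) read lower with berberine in both pairs and 10 (11.1%) higher, against 29.5% and 25.2% of 18496 probe sets of all genes.

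The antibody was compared with control to see what it does alone. In DNP against control 35 of the 52 genes lay above 0, with a median of 0.12, where all genes had 0.02 and 53.3% above 0. In BER+DNP against BER 26 lay above 0, with a median of 0.01, where all genes had 0.00 and 48.8% above. DNP against control shares the DNP array with the second berberine pair, and the DNP array was the highest of the 4 in 25 of the 52 genes (48.1%), against 29.5% of all genes. It was also the highest in 48.4% of the 31 Nduf genes and in 29.9% of the 67 mitochondrial ribosomal protein genes. A high reading of that array enters both comparisons, with opposite signs.

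In DNP against control 2 carriers were at least 1.5-fold higher, where 0.803% of all genes were, and 0 members were that much lower, where 0.628% of all genes were. In either direction it was 1.43% of all genes. Slc25a48, a carrier family member, read 5.36 in DNP and 4.58 in control, 1.72-fold higher, but 4.85 in BER+DNP and 5.08 in BER. Slc25a33, a pyrimidine nucleotide carrier, read 5.02 in DNP and 4.34 in control, 1.61-fold higher, and 4.81 in BER+DNP and 4.70 in BER. In BER+DNP against BER 0 of the 52 reached 1.5-fold either way, where 0.358% of all genes were that much lower, 0.556% higher and 0.914% in either direction. In both antibody pairs together 0 members were past 1.5-fold, where 0.0159% of all genes were lower and 0.0159% higher.

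Slc25a17, a peroxisomal carrier of cofactors, read 4.54 in BER+DNP and 3.95 in DNP, 1.5-fold higher, but 4.38 in BER and 4.51 in control. Its DNP reading was the lowest of the 4. A second probe set went the same way, with 0.27 and -0.06.

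Other genes of the import pathway were listed with earlier results of these data known, together with Vdac channels, Ucp carriers and lipid transfer relatives of Prelid1. As a set they differed less. Of 29 on the array 24 passed the filter, with medians of -0.03 without the antibody and -0.04 with it. In the first comparison 1 was at least 1.5-fold lower, where 0.985% of all genes were, and 0 higher, where 1.01% were. In the second it was 0 either way, where 1.21% of all genes were past 1.5-fold. The lower gene was Romo1, a small inner membrane protein tied to the presequence translocase. It read 4.70 in BER and 5.41 in control but 5.19 in both BER+DNP and DNP. Below 0 in both pairs were 7 of the 24 (29.2%), near the 29.7% of all genes. Above 0 in both were 3 (12.5%), against 25.4%.

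The oxidoreductase gene Chchd4, which folds the small chaperones in the intermembrane space, gave -0.09 and -0.37. Mtch1 and Mtch2, outer membrane relatives of the carriers, gave -0.06 and -0.44, and -0.21 and -0.22. Hspa9, the matrix chaperone that drives import, gave 0.28 and -0.09. It was the 1 gene of the list past 1.5-fold in BER+DNP against BER, lower at 4.28 in BER+DNP and 4.94 in BER. In that comparison 0.914% of all genes were past 1.5-fold. The lipid transfer relatives Prelid2 and Prelid3a gave -0.05 and 0.04, and 0.06 and 0.05, while Triap1, the partner of Prelid1, read at most 3.21 and had a mean below the filter. The channels Vdac1 and Vdac2 gave 0.03 and -0.03, and 0.19 and -0.03. Above 0 in both pairs, besides Prelid3a, stood Mtx2, with 0.23 and 0.07, and Ucp3. The last, a carrier family gene without the Slc25a symbol, gave 0.38 and 0.39, each above the value of Slc25a38 in the same pair.

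The 17 genes under the filter were 6 of the inner translocase and 11 carriers. Timm10b, which works at the carrier translocase, passed the filter and entered the counts. Timm22 and Timm29 of the same translocase are both among the 17, with mean signals of 3.10 and 2.82. So are Timm9, the partner of Timm10 (2.76), Timm21 (2.66), Timm8a2 (1.40, between 1.38 and 1.42 on the 4 arrays) and Timmdc1, an assembly factor of complex I (3.10). The carriers under the filter lay between 1.52 (Slc25a31) and 2.91 (Slc25a54) and include Slc25a37, the mitoferrin of red cell precursors (1.69). A further 4 probe sets list an import or carrier gene together with another gene and were not used.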

How the data were processed

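RNA of 4 cultures labelled as MC/9 was hybridised to 1 Affymetrix Mouse Genome 430 2.0 array each. The authors deposited log2 signals of 45101 probe sets, made with Affymetrix Expression Console per the submitters' processing notes; its version, algorithm and background correction are not given in the sources used. The log2 scale was read from the values. Array medians lay between 3.13 and 3.15, so the values were used as deposited, without further normalization, and any floor or smoothing at low signals stays in them.

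After 64 control probe sets were set apart, 34945 probe sets had 1 symbol in the platform annotation of 2016, 932 several and 9160 none. All 69 members matched RefSeq by gene identifier, with 0 symbols changed. For each gene the probe set with the highest mean log2 signal was used, and the gene entered counts if that mean reached 3.14, the median of non-control probe sets, which left 12585 genes. Differences were taken between 2 arrays and counted at 1.5-fold. With 1 array per group no test was made, and no additive model was fitted, since only 1 residual degree of freedom would remain.

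Genes given with all their values are those past 1.5-fold in any of 4 comparisons, the 4 brightest of each family and the relatives of genes past 1.5-fold in both berberine pairs; others named individually were chosen after their values were seen. Members, subgroups and lists were chosen with earlier results of these data known. Alternatives changed the choice of probe set, the filter, the normalization or a constant added to the signals. Tools were Python 3.11.15, pandas 2.3.3, NumPy 2.4.6 and Matplotlib 3.10.9.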

Additional observations from a re-analysis of the deposited data

Results flagged for a closer look

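Slc25a48 and Slc25a17 had berberine differences of opposite sign with and without the antibody, at least 1.5-fold apart on the linear scale; with 1 array per group the difference between the pairs was not tested. Slc25a48 read 5.08 in BER and 4.58 in control but 4.85 in BER+DNP and 5.36 in DNP, so its difference in BER+DNP against DNP minus that in BER against control was -1.01. Its second probe set past the filter differed by 0.22 and -0.29. For Slc25a17 the same quantity was 0.72, with a DNP reading of 3.95 set against 4.38 to 4.54 on the other arrays.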

How the results depend on the processing

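No paired analysis was possible because each group holds 1 array, so groups share fewer than 2 replicate numbers; an additive model over the 4 arrays, with 1 residual degree of freedom, was not run. The count of 3 genes at least 1.5-fold lower in both berberine pairs was 1 with the median of all probe sets (Timm17a) and 1 with 32 or 100 added to the linear signals (Prelid1 each time). It was 2 without probe sets of the suffixes x and s (Timm17a and Timm8a1) and 2 under a filter raised to the 75th percentile (Prelid1 and Timm8a1), and 3 with no filter, with quantile normalization and with centred differences. The count of genes higher in both was 0 under every alternative run. Every family median stayed below 0 under the alternatives run, but many came closer to it. For inner translocase genes it lay between -0.28 and -0.056 in BER minus control (-0.083 with no filter, -0.11 with 32 and -0.056 with 100 added) and in BER+DNP minus DNP between -0.26 and -0.074 (-0.13 with 32 and -0.074 with 100 added). For outer translocase genes it lay in the first between -0.080 and -0.023 (-0.023 with quantile normalization, -0.029 with 100 added) and in the second between -0.32 and -0.047 (-0.047 from the median over probe sets, -0.17 with quantile normalization, -0.18 with 32 and -0.11 with 100 added). For metabolite carriers it was in the first -0.030 with the median of all probe sets, -0.052 under the raised filter, -0.041 with quantile normalization, -0.031 with 32 and -0.012 with 100 added, and in the second -0.058 with no filter, -0.055 with 32 and -0.023 with 100 added. The added constants shrink differences of dim genes by construction; for the other changes the cause was not tested. Of 668 values of named genes under the alternatives, 560 shifted by at most 0.1 and 108 by more. The sign differed in 18, of which 14 came from taking a gene's median probe set value and 4 from quantile normalization, and 0 of the 18 were past 1.5-fold as reported. With the median of all probe sets, BER minus control was 0.07 for Tomm20, 0.09 for Slc25a3 and -0.30 for Timm50, and BER+DNP minus DNP was 0.009 for Tomm20, -0.08 for Slc25a3 and 0.10 for Tomm7. Detection calls are not used here, so small differences at dim signals do not show that a gene was unchanged.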

Other observations

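Some carriers and translocase genes under the filter differed by about as much as those above it, and most of those named here did so in 1 pair only. Slc25a54 read 3.26 in BER and 2.65 in control, but 2.86 in BER+DNP and 2.89 in DNP. Timm22 read 3.30 in BER and 2.73 in control, but 3.12 in BER+DNP and 3.26 in DNP. Slc25a37 read 1.98 in BER+DNP and 1.45 in DNP, but 1.64 in BER and 1.68 in control. Timm29 lay below 0 in both pairs, with -0.34 and -0.42.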
